A study of Mus musculus with 7 samples.

Results

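Myc, its paralogs and the proteins that share their dimer partner were followed in C3H10T1/2 cells, an established mouse cell line of mesenchymal origin, after stimulation of Smo. The members were chosen by gene symbol as Myc, Mycn, Mycl1, Max, Mxd1, Mxd3, Mxd4, Mxi1, Mnt and Mga, and 9 of these 10 had a row among the 18468 genes of the count table. Mycn has no row in the table used and was not analysed here. The study exposed the cells for 48 h to 2 μM of the Smo agonist purmorphamine (4 libraries, numbered 5 to 8), or to 0.02% DMSO as vehicle (3 libraries, numbered 2 to 4). Cells of both groups were of the same line, received no adenovirus, and had been kept without serum for 12 h before the exposure and throughout it. Total RNA depleted of ribosomal RNA was sequenced with strand information, and the sense-strand reads of each gene were counted. The labels do not say that the libraries came from separate cultures, so that the p-values measure the spread between these libraries, which may be technical.

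Myc, Mycn and L-Myc (encoded by Mycl1) are basic helix-loop-helix leucine zipper proteins that bind DNA as dimers with Max. Myc-Max dimers recruit histone acetyltransferases to E-boxes with the core CACGTG and raise transcription of genes for ribosome production, metabolism and cell cycle entry. The Mxd proteins, Mxi1 and Mnt pair with the same Max and bring Sin3 and histone deacetylases to the same sequences. Mga, the largest of the Max partners, acts within a polycomb complex. Myc mRNA and protein turn over quickly and respond to serum and other growth signals.

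The E-box core was searched in RefSeq promoter windows of GRCm38.p6, each running from 250 bases before to 50 bases after an annotated start. CACGTG reads the same on both strands. Of the 9 members with counts, 8 had a window, and 3 of these (37.5%), Max, Mxd4 and Mnt, held an E-box, against 8.09% of all 27025 genes with a window and 11.9% of the 8699 tested genes that had one. Myc is not in the promoter table. The 3 sites are shown because they place a possible binding sequence of the network at the starts of its own genes, and the E-box is in capitals with 10 bases on either side. They lie at chr12:76962236-76962261 on the minus strand for Max, with the E-box beginning 3 bases before the start and spanning it, at chr5:34187914-34187939 on the minus strand for Mxd4, 219 bases before the start, and at chr11:74830791-74830816 on the plus strand for Mnt, 123 bases before it.
Max: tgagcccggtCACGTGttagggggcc
Mxd4: gctgggccacCACGTGctgttgctaa
Mnt: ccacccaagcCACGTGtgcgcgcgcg
The 250 bases before the start of Mnt (chr11:74830674-74830923, plus strand) are given whole, since Mnt is the member that holds an E-box and was higher with purmorphamine. A match of these letters does not show that Myc, Max or Mnt was bound there in these cells. The letters GACCACCCA, the consensus site of the Gli proteins that act below Smo, were searched on both strands of the same windows. They occurred in 0 of the 8 members' windows and in those of 0.289% of all genes. With a share this low, 0 of 8 was the likely outcome and says little about the members. Of the Hedgehog response genes examined, 2 had a window and 0 of these held the letters.
Mnt: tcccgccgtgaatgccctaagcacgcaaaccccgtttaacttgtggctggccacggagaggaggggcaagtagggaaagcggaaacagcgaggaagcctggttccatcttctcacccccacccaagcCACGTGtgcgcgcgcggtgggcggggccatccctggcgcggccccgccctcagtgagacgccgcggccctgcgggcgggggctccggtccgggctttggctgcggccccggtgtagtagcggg

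The 7 libraries held between 14337225 and 14342154 counted reads. A gene with 0 reads in a library of this size could still have been present at up to 3 reads. This limit covers counting error only. The intervals given below come from the edgeR fit and also take in the spread between these libraries, which may be technical. The treatment was visible in Gli1, a direct target of Hedgehog signaling, with 7 to 12 reads per vehicle library and 2522 to 3171 per purmorphamine library, and in Ptch1, which rose by 4.34 on the log2 scale (adjusted p = 6.39e-18, edgeR). All 8 mesenchymal markers examined were present in every library, with summed reads of 274977 to 281008 with vehicle and 254448 to 272581 with purmorphamine. Of these 5 were called higher, among them Pdgfra (0.76 on the log2 scale), Thy1 (0.74) and Twist1 (0.65), and 2 lower, Vim (-0.96) and Col1a2 (-0.23). Of 13 markers of epithelial, endothelial and blood cells with a row, 8 stayed at or below 5 reads in every library, among them Pecam1, Kdr and Ptprc. Summed over each list, epithelial markers had 14 to 23 reads with vehicle and 111 to 136 with purmorphamine, endothelial markers 779 to 820 and 1898 to 2154, and blood markers 83 to 85 and 57 to 82. Cdh1 made up most of the epithelial sum and Tek most of the endothelial sum, and Cdh5, the endothelial cadherin, had 0 reads in all vehicle libraries and 21, 26, 22 and 24 with purmorphamine. Their part in the results was not tested.

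Both Myc paralogs with a row were lower with purmorphamine, and 3 of the antagonists, Mxd3, Mxi1 and Mnt, were higher. Of the 9 members tested 3 were called higher, 4 lower and 2 were not called at an adjusted p under 0.2, the study's threshold, in edgeR's quasi-likelihood test. Among all 12388 genes tested 62.5% were called, 31.4% higher and 31.1% lower, so that 7 called members of 9 is close to the share of the whole table. All 7 also had an adjusted p under 0.05, which 46.9% of all genes had. The median log2 fold change of the members was -0.045, against 0.0038 over all genes tested. Single members differed in the size of the change. A limit of 1.5-fold, chosen after seeing the data, was reached by 7.89% of all genes upward and 7.56% downward. At this limit 1 member was higher (Mxd3) and 2 were lower (Myc and Mycl1). These 2 were lower by at least 2-fold, as were 3.45% of all genes. Of them, Mycl1 had few reads and passed the low-count filter through its vehicle libraries, so its call had to be a decrease. The deposited counts of the groups did not overlap for 6 members, 3 in each direction, where 29.1% of all genes separated upward and 20.4% downward. In bulk RNA, fewer cells that express a gene and less RNA per cell cannot be told apart.

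**Figure D1:**
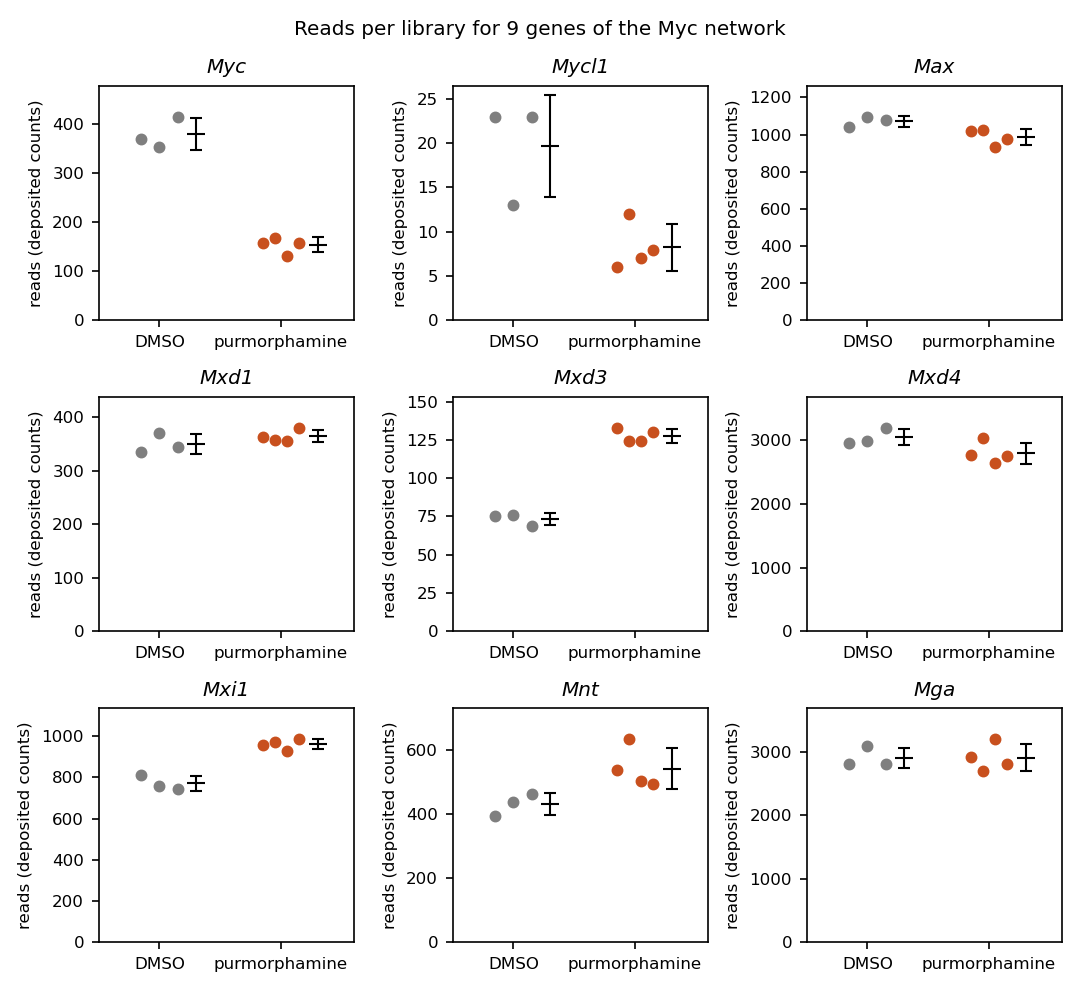
Deposited reads per library for the 9 members, 1 panel each, with 3 DMSO libraries in grey and 4 purmorphamine libraries in orange, and bars for the mean and SD. All 4 purmorphamine libraries lie at 132 to 168 reads for Myc, below the 354 to 415 of the DMSO libraries, and at 124 to 133 for Mxd3, above the 69 to 76 of the DMSO libraries, whereas the groups overlap for Mxd1, Mxd4 and Mga.

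Myc (ENSMUSG00000022346, chromosome 15 from 61816746 to 61822129 in mm9) was covered by 369, 354 and 415 reads in vehicle libraries 2, 3 and 4, and by 158, 168, 132 and 157 in the purmorphamine libraries 5 to 8. The highest purmorphamine library held fewer than the lowest vehicle library by a wide margin. The mean fell from 379 ± 31.8 (SD, n = 3) to 154 ± 15.3 (SD, n = 4), to 0.405 of its level with vehicle. In log2 terms the change was -1.35 (standard error 0.0929, 95% interval -1.55 to -1.15, adjusted p = 2.65e-09 from edgeR), and it ran from -1.40 to -1.27 when single libraries were omitted. An exact permutation test, two-sided, on the scaled log2 counts gave p = 0.0286, the smallest that 3 libraries against 4 allow.

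Pvt1, the long noncoding RNA gene next to Myc, did not follow it. Its reads were 292, 321 and 247 with vehicle and 296, 262, 346 and 303 with purmorphamine. The groups overlapped, and the log2 fold change of 0.027 had an interval from -0.19 to 0.25 (adjusted p = 0.853, edgeR). Mycnos, the antisense neighbour of Mycn, has no row in the table used.

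Mycl1 (ENSMUSG00000028654, chromosome 4 from 122672695 to 122679928 in mm9) was close to the lower end of what could be tested. It was counted at 23, 13 and 23 reads with DMSO and at 6, 12, 7 and 8 after purmorphamine. The groups touched without overlapping in the deposited counts, and the mean fell from 19.7 ± 5.77 to 8.25 ± 2.63 reads. The log2 fold change was -1.29 (standard error 0.32, 95% interval -1.96 to -0.61, adjusted p = 0.00328 from edgeR), with an exact permutation p of 0.0571, two-sided. Mycl1 passed the filter on low counts through its vehicle libraries, in all of which it reached 10 reads, so its call had to be a decrease.

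Max, the partner shared by all the other members, changed little. Max (ENSMUSG00000059436, chromosome 12 from 78038056 to 78063435 in mm9) had 1040, 1097 and 1079 reads in vehicle-treated cells and 1017, 1027, 932 and 976 after purmorphamine. All purmorphamine libraries lay below all vehicle libraries, but the mean fell only from 1072 ± 29.1 to 988 ± 43.4 reads, a ratio of 0.922. The log2 fold change was -0.16 (standard error 0.0507, 95% interval -0.27 to -0.06, adjusted p = 0.0135 from edgeR).

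Mxd3, a Max partner expressed in cycling cells, was the member that rose most. Mxd3 (ENSMUSG00000021485, chromosome 13 from 55426329 to 55431319 in mm9) was counted at 75, 76 and 69 reads with DMSO and at 133, 124, 124 and 130 after purmorphamine. The groups were narrow and far apart, at 73.3 ± 3.79 and 128 ± 4.5 reads, a ratio of 1.74. The log2 fold change was 0.75 (standard error 0.113, 95% interval 0.51 to 0.99, adjusted p = 3.5e-05 from edgeR). The 12 mitosis genes described further on were higher in the same libraries, and a link between them and Mxd3 was not tested.

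Mxi1 and Mnt rose by smaller amounts. Mxi1 (ENSMUSG00000025025, chromosome 19 from 53384796 to 53450500 in mm9), also known as Mxd2, had 811, 757 and 744 reads in vehicle-treated cells and 957, 969, 928 and 987 after purmorphamine. Mxi1 reads were higher in all purmorphamine libraries than in any vehicle library, with means of 771 ± 35.5 and 960 ± 24.8 reads and a log2 difference of 0.27 (standard error 0.0527, adjusted p = 0.000452 from edgeR). Mnt (ENSMUSG00000000282, chromosome 11 from 74644222 to 74659427 in mm9), which encodes the most broadly expressed of these antagonists, was counted at 394, 436 and 461 reads with DMSO and at 536, 635, 504 and 492 after purmorphamine. The groups did not overlap, and library 6 stood above the others. The log2 fold change of Mnt was 0.28 (standard error 0.0862, 95% interval 0.10 to 0.47, adjusted p = 0.0123 from edgeR), with an exact permutation p of 0.0571, two-sided, and it was 0.21 without purmorphamine replicate 6.

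Mxd4 fell slightly and Mxd1 was not called. Mxd4 (ENSMUSG00000037235, chromosome 5 from 34516336 to 34530569 in mm9) had 2956, 2985 and 3190 reads in vehicle-treated cells and 2754, 3023, 2640 and 2743 after purmorphamine. Library 6 lay among the vehicle libraries and the others below them, and the mean fell from 3044 ± 128 to 2790.0 ± 164 reads. The log2 fold change of Mxd4 was -0.17 (standard error 0.0513, adjusted p = 0.0109 from edgeR), with an exact permutation p of 0.0571, two-sided. Mxd1 (ENSMUSG00000001156, chromosome 6 from 86596838 to 86619353 in mm9), the founding member of the Mxd proteins, was counted at 335, 371 and 345 reads with DMSO and at 364, 358, 356 and 381 after purmorphamine. The groups overlapped, and the log2 fold change of 0.011 had a 95% interval from -0.14 to 0.16 (adjusted p = 0.915, edgeR).

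Mga (ENSMUSG00000033943, chromosome 2 from 119722764 to 119795517 in mm9) had 2818, 3089 and 2819 reads in vehicle-treated cells and 2925, 2706, 3212 and 2806 after purmorphamine. The groups overlapped widely at means of 2909 ± 156 and 2912 ± 219 reads. The log2 fold change was -0.045 (95% interval -0.17 to 0.08, adjusted p = 0.566 from edgeR), and it turned to 0.0021 when the libraries were scaled by their totals alone. Without purmorphamine replicate 7, the library with the most Mga reads, the gene was called lower with -0.092 (adjusted p = 0.152, edgeR).

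**Figure D2:**
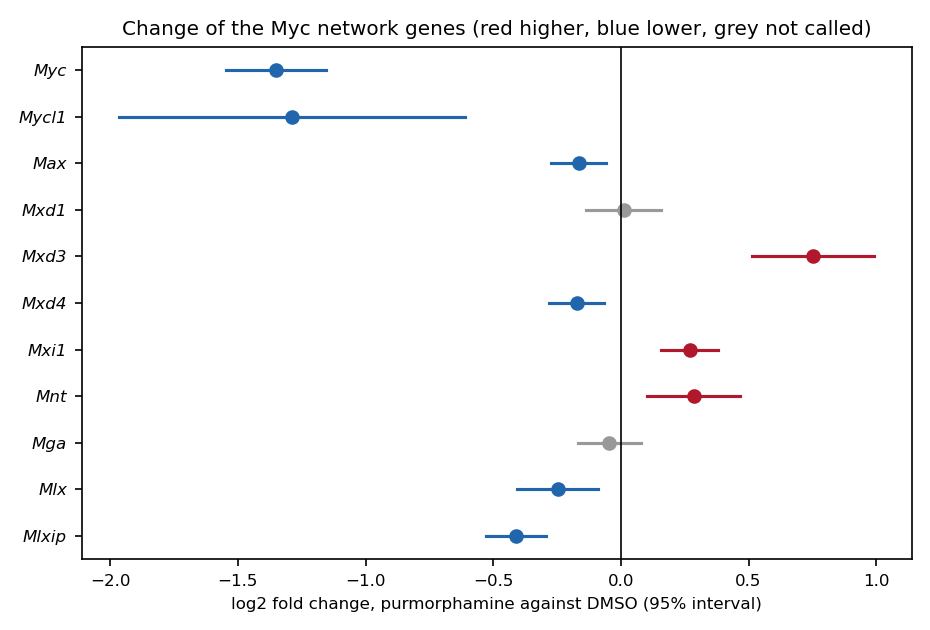
Log2 fold change (horizontal axis) of each member, and of Mlx and Mlxip, for purmorphamine against DMSO from edgeR, with 95% intervals as bars, in red for genes called higher, blue for lower and grey for not called. Myc (-1.35) and Mxd3 (0.75) lie farthest from 0 among the members with narrow intervals, while the interval of Mycl1 is wide and those of Mxd1 and Mga span 0.

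Levels of different members were compared as reads per kb of merged exons, with lengths from GENCODE M21. With vehicle the order of mean levels was Mxd4 (359), Max (298), Mga (189.6), Myc (139.6), Mxi1 (113), Mnt (93.0), Mxd1 (49.5), Mxd3 (31.0) and Mycl1 (4.87), and no neighbours in this order overlapped between libraries. With purmorphamine it was Mxd4 (329), Max (275), Mga (189.8), Mxi1 (141), Mnt (117), Myc (56.6), Mxd3 (53.9), Mxd1 (51.6) and Mycl1 (2.04). Myc thus moved from the 4th to the 6th place in level, behind Mxi1 and Mnt. The levels of Mxi1 and Mnt, of Myc and Mxd3, and of Mxd3 and Mxd1 overlapped between purmorphamine libraries. When the longest transcript served as the length, Myc moved from the 4th to the 8th place.

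Ratios of these levels within a library do not depend on how libraries are scaled. The Mnt to Myc ratio was 0.627, 0.723 and 0.652 with vehicle, and 1.99, 2.22, 2.24 and 1.84 with purmorphamine, so Myc stood above Mnt in every vehicle library and below it in every purmorphamine library. The Mxi1 to Myc ratio was 0.714 to 0.875 and 2.30 to 2.80, but with longest transcripts the levels of both genes overlapped with vehicle. The Max to Myc ratio was 2.13, 2.34 and 1.96 with vehicle and 4.86, 4.62, 5.33 and 4.69 with purmorphamine. Within the Mxd genes, the ratio of Mxd3 to Mxd1 moved from between 0.597 and 0.668 to between 1.02 and 1.09. The summed level of Mxd1, Mxd3, Mxd4, Mxi1 and Mnt was 4.48 ± 0.312 times that of Myc and Mycl1 with vehicle (SD, n = 3) and 11.9 ± 0.821 times with purmorphamine (SD, n = 4). Most of this difference lay in the denominator, since the summed level of Myc and Mycl1 went from 144 to 58.6 and that of the antagonists from 645 to 692 reads per kb. The denominator does not include Mycn, which has no row in the table used, so it is not a level of the whole family. Longest transcripts gave 6.11 and 15.7 times. These are levels of mRNA, and they carry no test because the genes were chosen together.

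**Figure D3:**
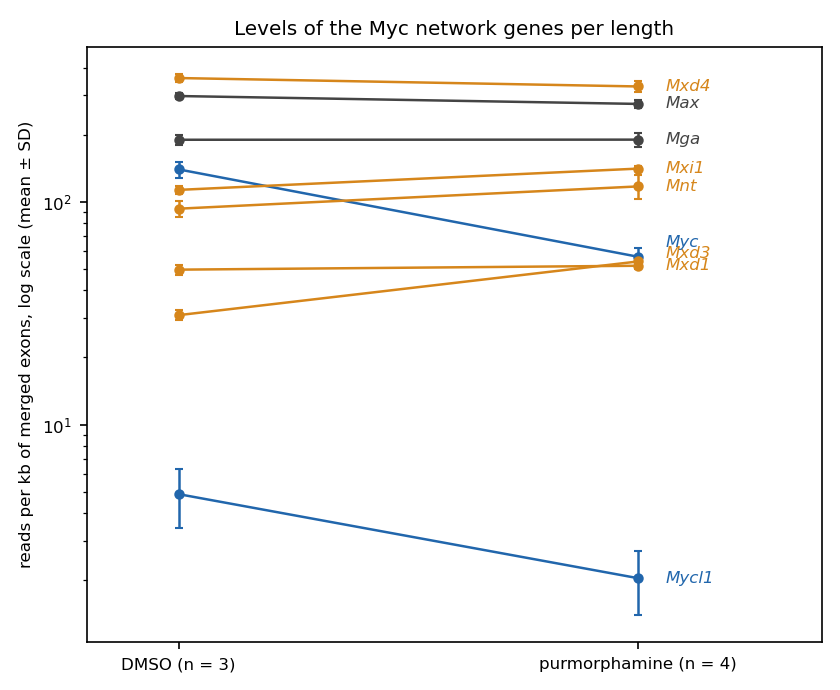
Mean level of each member in reads per kb of merged exons (vertical axis, log scale) with DMSO (n = 3) and purmorphamine (n = 4), bars showing the SD, with Myc paralogs in blue, antagonists in orange, and Max and Mga in grey. The line for Myc falls from 139.6 to 56.6 and crosses those of Mxi1 and Mnt, and the line for Mxd3 rises from 31.0 to 53.9 to meet that of Mxd1.

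Mlx is the Max-like protein of a parallel branch, in which it pairs with the glucose-responsive factors Mondo A (Mlxip) and ChREBP (Mlxipl) and also with Mnt and some Mxd proteins. Of 4 genes tested in this branch 1 was called higher and 3 lower, where 31.4% of all genes were called higher and 31.1% lower. The groups separated downward for 20.4% of all genes. Mlxip was counted at 1091, 1215 and 1078 reads with DMSO and at 837, 930, 878 and 860 after purmorphamine, all of the latter lower, with a log2 fold change of -0.41 (adjusted p = 1.24e-05, edgeR). Mlx had 349, 382 and 398 reads and then 316, 345, 338 and 311, again without overlap, with a log2 fold change of -0.25 (adjusted p = 0.0123, edgeR). Mlxipl had at most 2 reads in any library and was not tested. Of the targets of Mondo A, Txnip, a binder of thioredoxin, rose from 6309 ± 158 to 7068 ± 94.7 reads, or by 0.12 on the log2 scale (adjusted p = 0.0343, edgeR). Arrdc4, an arrestin-like relative of Txnip, was called lower with -0.13 (adjusted p = 0.0910, edgeR), its groups overlapped, and the call was lost without DMSO replicate 3 (-0.090), without purmorphamine replicate 6 (-0.0954) and with library totals alone (-0.086).

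Among 16 co-activators of Myc, 10 were called lower, 6 were not called and 0 were called higher, with a median log2 fold change of -0.11, but with library totals as the only scaling 6 were lower and 6 higher. DESeq2 and limma-voom also called 0 higher, and edgeR had 0 higher at an unadjusted p under 0.05. Without DMSO replicate 3 and without purmorphamine replicate 8, 1 was called higher. The counts of this and the following lists stand beside 31.4% of all genes called higher and 31.1% lower. Actl6a, an actin-related subunit of chromatin remodelling and acetyltransferase complexes, went from 434 ± 5.29 to 346 ± 19.0 reads (log2 fold change -0.38, adjusted p = 0.000223, edgeR). Kat2a, which encodes the acetyltransferase GCN5, had a log2 fold change of -0.32, Ruvbl2, an ATPase of the same complexes, -0.28, and Smarcb1, a subunit of the SWI/SNF remodeller, -0.21, all called lower.

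The list of co-repressors, drawn up mainly for Mxd proteins and Mnt, was split, with 5 of 10 called higher, 3 lower and 2 not called, and a median of 0.06. The 5 include Zbtb17, a partner in repression by Myc itself, and Dnmt3a, so the count is not of Mxd and Mnt co-repressors alone. Sap30, a subunit of the Sin3 complex, was the extreme, with 86, 73 and 76 reads in vehicle-treated cells and 30, 20, 34 and 37 after purmorphamine. The groups lay far apart, with a log2 fold change of -1.42 (adjusted p = 6.01e-06, edgeR). Hdac2, a histone deacetylase of the same complex, fell by 0.32 on the log2 scale (adjusted p = 0.000168, edgeR). Zbtb17, which encodes Miz1, a partner through which Myc represses genes, was called higher with 0.22 (adjusted p = 0.160, edgeR), and this call was lost without DMSO replicate 2 (0.12), without purmorphamine replicate 5 (0.23) and without purmorphamine replicate 6 (0.21). The Zbtb17 call was also lost with the DESeq2 Wald test (adjusted p = 0.289) and at a threshold of 0.05.

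Of 9 genes of the polycomb complex that holds Mga, 2 were called higher, 1 lower and 6 were not called. E2f6, the E2F protein of this complex, had 503, 491 and 507 reads in vehicle-treated cells and 699, 683, 713 and 766 after purmorphamine, well apart, with a log2 fold change of 0.47 (adjusted p = 6.7e-06, edgeR). Rnf2, its ubiquitin ligase, fell by 0.19 on the log2 scale, from 1940.0 ± 19.0 to 1751 ± 44.2 reads. Tfdp1, the dimer partner of E2F proteins, was called higher with 0.088 (adjusted p = 0.163, edgeR). That call was lost without DMSO replicate 2 (0.061), without purmorphamine replicate 5 (0.093) and without purmorphamine replicate 6 (0.072), which left 1 gene higher, and without purmorphamine replicate 6 the genes called lower numbered 2. Tfdp1 also lost its call with the DESeq2 Wald test (adjusted p = 0.254), with no filter on low counts and at a threshold of 0.05.

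Genes for the turnover of Myc protein showed no single direction, with 4 of 17 called higher, 5 lower and 8 not called, where 62.5% of all genes were called, and a median of -0.029. The number called lower was 3 without DMSO replicate 4 and 3 with library totals alone. The 4 higher were Aurka, a mitotic kinase that shields N-Myc from degradation (0.40), Ppp2r5a, a phosphatase subunit that acts on Myc (0.37), and the ubiquitin ligase subunits Skp2 (0.35) and Fbxo32 (0.25). Their groups did not overlap. Among the 5 lower, Ppp2ca, the catalytic subunit of the same phosphatase (-0.23, adjusted p = 0.000551, edgeR), and Gsk3b, a kinase that marks Myc for degradation (-0.22, adjusted p = 0.000725, edgeR), also did not overlap between groups and were named after their values were seen. Myc protein was not measured.

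Known targets of Myc divided by function. Of the 64 genes tested on the lists for ribosome production, metabolism and the cell cycle, 43 were called lower, 15 higher and 6 were not called, with a median log2 fold change of -0.28. Against the 31.1% of all genes called lower, the ribosome list stood at 24 of 25 genes, with a median of -0.34 and 0 higher by edgeR (also at an unadjusted p under 0.05), DESeq2 or limma-voom, and 21 of the 25 did not overlap between groups where 20.4% of all genes separated downward. Its largest changes belonged to Ppan, a factor of large-subunit assembly, from 147 ± 16.1 to 99.8 ± 4.92 reads (log2 fold change -0.60, adjusted p = 0.000265, edgeR), Nop2, an rRNA methyltransferase (-0.58), Ddx21, a nucleolar helicase (-0.56), and Bop1, a factor of rRNA processing (-0.49). Nop2 was counted at 422, 459 and 443 reads with DMSO and at 293, 321, 291 and 319 after purmorphamine, every one of the latter lower. The exception was Npm1, the abundant nucleolar chaperone nucleophosmin, at 15307 ± 402 and 15618 ± 912 reads (log2 fold change -0.018, adjusted p = 0.811, edgeR), which was singled out after its value was seen. Npm1, Ldha, Eif4a1 and Eno1 have processed pseudogenes that can share reads with them.

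Of 24 metabolic targets tested 17 were called lower (against 31.1% of all genes), 4 higher (against 31.4%) and 3 were not called, with a median of -0.28. Hk2, hexokinase 2, had 83, 89 and 90 reads in vehicle-treated cells and 33, 35, 37 and 37 after purmorphamine. The groups were far apart, with a log2 fold change of -1.34 (adjusted p = 5.67e-07, edgeR). Slc2a1, the glucose transporter GLUT1, fell from 1255 ± 11.4 to 635 ± 64.3 reads (-1.03), Eno1, the glycolytic enzyme enolase, fell by 0.91 on the log2 scale, and Odc1, the rate-limiting enzyme of polyamine synthesis, went from 1093 ± 37.0 to 677 ± 51.0 reads (-0.74). The 4 that rose were Paics, an enzyme of purine synthesis (0.50, from 4756 ± 130 to 6956 ± 205 reads), Slc1a5, the glutamine transporter ASCT2 (0.40), Umps, an enzyme of pyrimidine synthesis (0.15), and Impdh2, which makes the precursor of guanine nucleotides (0.13), named after their values were seen. Tert, the telomerase subunit, did not pass the filter on low counts and was not tested.

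Cell cycle targets went the other way, with 11 of 15 called higher (against 31.4% of all genes), 2 lower (against 31.1%) and 2 not called, and a median of 0.34. Ccnd1, which encodes cyclin D1, was counted at 2948, 2723 and 2904 reads with DMSO and at 9497, 9051, 9402 and 9946 after purmorphamine. The groups did not come near each other, with a log2 fold change of 1.68 (adjusted p = 1.1e-13, edgeR). Tk1, thymidine kinase, rose by 0.72, Ccna2, cyclin A2, by 0.54 and Mcm6, a subunit of the replicative helicase, by 0.42. The 2 called lower, named after their values were seen, were Cdk4, the kinase partner of cyclin D1, at 5611 ± 256 and 4779 ± 344 reads (-0.28), and Ccne1, cyclin E1, whose groups overlapped (-0.31, adjusted p = 0.148, edgeR). The count of lower genes in this list was 1 without DMSO replicate 2 or 3, without purmorphamine replicate 5, 6 or 7, and with library totals alone.

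All 12 mitosis genes examined as a measure of dividing cells were called higher, where 31.4% of all genes were, with a median of 0.59, and none overlapped between groups. Top2a, topoisomerase II, rose by 0.95, Ccnb2, cyclin B2, by 0.73, and the mitotic motors Kif11 and Cenpe by 0.64 and 0.61. The summed reads of the 12 genes were 11693 to 12772 with vehicle and 20877, 16827, 19721 and 22664 with purmorphamine. Library 6 was the lowest and library 8 the highest of the latter. Myc mRNA was thus lower in the libraries in which the mitosis genes were higher, and whether the proportion of dividing cells had a part in the members' values was not tested.

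Of 9 tested genes that Myc is known to repress, 5 were called lower, 2 higher and 2 were not called, with a median of -0.13, so that 7 called genes of 9 is close to the 62.5% of all genes. Thbs1, the matrix protein thrombospondin 1, went from 34052 ± 807 to 14703 ± 1516 reads (-1.26, adjusted p = 7.0e-11, edgeR) and Gas1, a Hedgehog co-receptor whose mRNA is raised in growth arrest, from 27528 ± 554 to 13596 ± 352 (-1.06). Cebpa, a transcription factor of fat cells, fell by 0.55 and Ndrg1, a stress-response gene, by 0.33 on the log2 scale. The 2 higher were Gadd45a, a growth arrest gene (0.31), and Cdkn1b, which encodes the cyclin-dependent kinase inhibitor p27 (0.18).

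**Figure D4:**
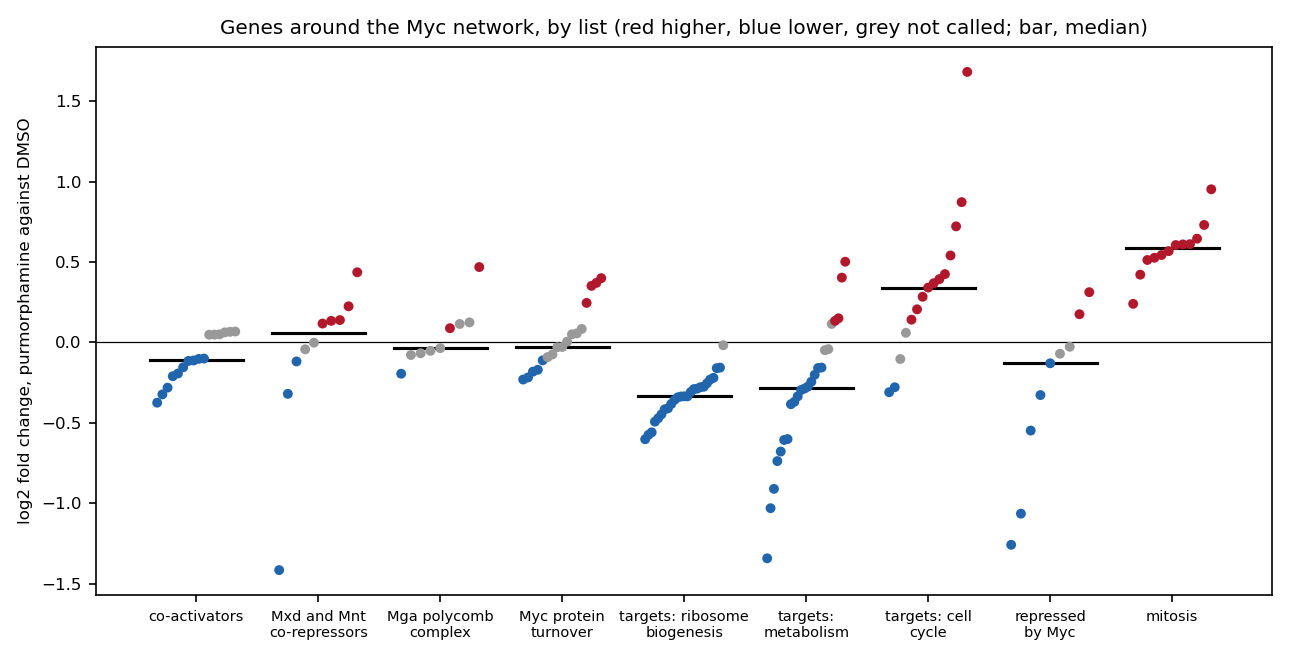
Log2 fold change for purmorphamine against DMSO (vertical axis) of each tested gene in 9 lists around the Myc network, in red for called higher, blue for lower and grey for not called, with a bar at each list's median. The medians for ribosome (-0.34) and metabolic (-0.28) targets lie below 0 and those for cell cycle targets (0.34) and mitosis genes (0.59) above it, and the co-activators, at -0.11 here, divide evenly when library totals are the only scaling.

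The promoter windows let the targets be read against the E-box, and 51 of the 64 tested targets had a window. Of 11 targets with CACGTG in the window 8 were called lower, 2 higher and 1 was not called (median log2 fold change -0.34), and of 40 without it 28 were lower, 8 higher and 4 not called (median -0.28). Nearly equal shares were lower with and without the E-box, and no test was made of the difference. The following sites are shown because the first 4 genes were lower and the last was higher with purmorphamine although all carry the same core, in capitals. They lie at chr6:125131813-125131838 for Nop2, 60 bases before the start, at chr11:93968275-93968300 on the minus strand for Nme1, a nucleotide kinase gene, 18 bases before it, at chr7:46845746-46845771 for Ldha, lactate dehydrogenase A, 48 bases before it, at chr11:69672597-69672622 on the minus strand for Eif4a1, a translation initiation helicase, 189 bases before it, and at chr5:76951089-76951114 for Paics, 203 bases before it.
Nop2: gtccctggatCACGTGtgttccggtg
Nme1: tgcggggaacCACGTGaggccgggga
Ldha: gcccagcctaCACGTGggttcccgca
Eif4a1: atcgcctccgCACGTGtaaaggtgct
Paics: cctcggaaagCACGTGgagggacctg
Nme1 fell by 0.61, Ldha by 0.38 and Eif4a1 by 0.60 on the log2 scale, and all 3 were called, beside -0.58 for Nop2 and 0.50 for Paics. Cdk4 is shown whole because its 250 bases before the start (chr10:127063285-127063534, plus strand) held 4 E-boxes, the most of any target here, and it was called lower while most cell cycle targets rose.
Cdk4: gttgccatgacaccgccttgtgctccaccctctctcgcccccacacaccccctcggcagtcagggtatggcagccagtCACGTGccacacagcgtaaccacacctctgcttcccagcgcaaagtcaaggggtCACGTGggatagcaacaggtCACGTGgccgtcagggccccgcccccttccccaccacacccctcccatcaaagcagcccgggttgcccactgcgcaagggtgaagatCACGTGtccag

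Among the genes whose pattern over the 7 libraries was most like that of Myc, by Pearson correlation of log2 depth-scaled counts with genes averaging under 50 reads set aside, were Aplp2, an amyloid precursor-like protein (0.999), and Cryab, the small heat shock protein αB-crystallin (0.999). Each was lower in all purmorphamine libraries, with log2 fold changes of -0.41 and -1.44. Since the 7 libraries fall into a pair of groups, any gene with a steady decrease correlates with Myc, and 961 of 10672 genes had a correlation above 0.95.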

How the data were processed

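The deposited values are counts of sense-strand reads for each gene, which the authors had resampled to equal numbers per library. The submitters' processing notes name STAR 2.5.3a and mm9, and the annotation is not given in the sources used here. Resampling removes reads and so lowers precision for genes with few reads. The 7 libraries were grouped by their labels.

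The counts were fitted with edgeR 4.0.16 (limma 3.58.1, R 4.3.3) with TMM factors, the filterByExpr defaults (10 reads at the median library size in a group's worth of libraries, 15 in all) and a quasi-likelihood test without covariates, and p-values were adjusted by Benjamini-Hochberg over all 12388 genes tested. Standard errors and 95% intervals come from that fit. Single members were also compared by exact permutation of the group labels (35 assignments), on log2 scaled counts with 1 added. Levels per kb used exon lengths of GENCODE M21 (GRCm38), whereas gene positions are those of the table (mm9). Mycl1 was matched as Mycl in RefSeq and GENCODE. The planned ratio of Mycn to Myc was not computed.

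The members and gene lists were chosen with earlier results of these data known. Named genes were all members, the Mlx branch, Gli1, Ptch1, for other lists up to 4 called genes with the largest changes, no overlap and a mean of at least 50 reads, and 3 genes correlating best with Myc. Some genes that this rule covers are not reported here.

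On simulated counts for 12358 genes, edgeR recovered 90.0% of 100 genes changed by 0.5 and 99.0% of 100 changed by 1 on the log2 scale, and 22.5% of the genes it called at 0.2 had not been changed. Few genes were changed there, whereas 62.5% were called in the data, so these shares may not carry over. They do not cover changes under 0.5, such as those of Max, Mxd4, Mxi1 and Mnt, nor genes with as few reads as Mycl1. The alternatives were library totals, DESeq2 1.42.0 and its size factors, limma-voom, other filters, a threshold of 0.05 and each library left out.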

Additional observations from a re-analysis of the deposited data

Results flagged for a closer look

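Of 63 named genes examined within the 4 purmorphamine libraries, 2 had a library whose gap to the nearest other was too large a part of the group's range by Dixon's test at the 95% level, which chance alone passes in about 1 of 20 groups. Mcm6 stood apart in purmorphamine replicate 8, with 1824 scaled reads and a gap of 0.866 of the range. Mlxipl stood apart in purmorphamine replicate 6, with 0 reads against 1 in each of the other 3 libraries and a gap of 0.99 of the range, which at this depth is a difference of a single read.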

How the results depend on the processing

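Called at 1.5-fold or more, an alternative chosen after seeing the data, members numbered 1 higher and 2 lower, target genes 3 and 8, and all genes 977 and 936. With longest transcripts the ratio of antagonists to Myc and Mycl1 was 6.11 with vehicle and 15.7 with purmorphamine. Mxd1, Mga and Pvt1, none of them called, changed sign, Mxd1 to -0.0162 without DMSO replicate 2 and -0.00443 without purmorphamine replicate 8 (0.0503 at the highest), Mga to 0.0021 with library totals alone, and Pvt1 to -0.0628 without DMSO replicate 4 and -0.0417 without purmorphamine replicate 7 (0.11 at the highest). The 1.5-fold limit aside, the 7 called members kept their direction and call wherever they were tested, but with at least 10 counts in every library Mycl1 was not tested. With that limit likewise set aside, 52 of 58 named genes kept direction and call under the alternatives in which they were tested, the others being Mxd1, Mga, Arrdc4, Zbtb17, Tfdp1 and Pvt1. The cause of these changes was not tested. With library totals alone 4652 genes were higher and 3163 lower, against 3887 and 3854, and the median of all genes moved to 0.051. No paired analysis was made because the labels give no pairing between vehicle libraries 2 to 4 and purmorphamine libraries 5 to 8. Low depth widens the interval of Mycl1 and left Mlxipl untested, and Mycn was not analysed here.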
